A study of Mus musculus with 2 samples.

Results

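The complement components and receptors were 9 genes, taken by symbol from the 32285 genes of the deposited count tables: the C1q chains C1qa, C1qb and C1qc, the components C3, Cfb, Cfd and C6, and the receptors C3ar1 and C5ar1. All 9 symbols were found, each with 1 row. Cells came from a syngeneic fibrosarcoma, a transplantable tumor of connective tissue, grown under the skin of C57BL/6 mice of wild-type genotype. A magnetic column split the digested, red cell-depleted tumor into what it held and later released (iron-positive) and what ran through (iron-negative). Each fraction gave 1 droplet library (10x Genomics 3' v3), so the comparison has no replicate check and no p-value, and the number, age and pooling of the mice are not given in the labels. The files hold no measure of iron.

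Complement is a cascade of plasma and tissue proteins that marks surfaces for uptake and for lysis. C1q starts the classical pathway and is made mainly by macrophages, which also use it to clear dying cells. All pathways meet at C3, which factor B (Cfb) and factor D (Cfd) amplify in the alternative pathway, while C6 is one of the parts of the membrane attack complex, and C3ar1 and C5ar1 are the receptors of the small fragments C3a and C5a.

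The 3 C1q genes lie side by side on the minus strand of chromosome 4 (mm10, GENCODE annotation), C1qb at chr4:136880129-136886187, C1qc at chr4:136889804-136893065 and C1qa at chr4:136895917-136898803, a stretch of 18675 bases. C3 (chr17:57203970-57228136) and Cfb (chr17:34856374-34862518) are both on the minus strand of chromosome 17. C6 is at chr15:4727175-4814967 on the plus strand, C3ar1 at chr6:122847138-122856161 and C5ar1 at chr7:16246743-16259540 on the minus strand, and Cfd at chr10:79890853-79892655 on the plus strand. All 9 are protein-coding, and none overlapped another gene counted in the files. RefSeq promoters (GRCm38.p6, 250 bases before to 50 after the gene's RefSeq start) were at hand for 7 of the 9, C1qa and Cfb not among them. The RefSeq start need not be the GENCODE start. For C1qc, most of the promoter window lay inside the GENCODE gene, which on the minus strand begins at base 136893065. The promoters of C1qb (chr4:136886151-136886450) and C1qc (chr4:136892865-136893164) are shown because C1q summed over its 3 chains was lower in every iron-positive phagocyte state. For C1qb and C1qc taken singly, the interval of the ratio lay below 0 in 11 of 12 states. The promoter of C3 (chr17:57228087-57228386) is shown because C3 was not lower in every state. All 3 are written along the minus strand, and capitals mark motif matches on either strand.
C1qb: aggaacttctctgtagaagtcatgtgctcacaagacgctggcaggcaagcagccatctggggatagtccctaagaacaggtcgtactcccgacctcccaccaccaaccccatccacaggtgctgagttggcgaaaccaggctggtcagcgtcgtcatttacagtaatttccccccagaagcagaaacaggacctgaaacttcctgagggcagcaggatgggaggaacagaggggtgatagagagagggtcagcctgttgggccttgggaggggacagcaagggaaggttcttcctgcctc
C1qc: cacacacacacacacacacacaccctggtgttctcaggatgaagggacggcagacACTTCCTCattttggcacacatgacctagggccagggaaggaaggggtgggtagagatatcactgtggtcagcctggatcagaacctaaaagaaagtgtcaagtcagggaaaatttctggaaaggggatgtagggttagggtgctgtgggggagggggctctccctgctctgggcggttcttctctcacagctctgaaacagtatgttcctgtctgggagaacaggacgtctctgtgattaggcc
C3: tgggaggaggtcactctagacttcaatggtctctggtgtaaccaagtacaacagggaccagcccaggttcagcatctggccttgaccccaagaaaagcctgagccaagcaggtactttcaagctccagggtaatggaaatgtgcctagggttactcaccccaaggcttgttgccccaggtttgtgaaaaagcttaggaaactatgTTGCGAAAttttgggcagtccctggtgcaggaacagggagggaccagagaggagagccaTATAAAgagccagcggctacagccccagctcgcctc
The motifs searched were TATAAA (the TATA box core), TTGCNNAA (the C/EBP core), the interferon response element core (GAAA, 2 bases of any kind, GAAA) and GAGGAAGT (the core of PU.1, a factor of the myeloid lineage). Of 32851 promoters of this length, 13.6% held the first, 10.8% the second, 3.44% the third and 3.20% the fourth. C1qc held GAGGAAGT on the opposite strand at position -195 from the RefSeq start. C3 held TTGCNNAA at -45 and TATAAA at 15, both on its own strand. C3ar1 held TATAAA at -235, and C1qb, C6, C5ar1 and Cfd held none of the 4. A match is a run of letters, not a shown site.

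The iron-positive library held 13668 barcodes with a median of 6079 UMIs, and the iron-negative library 10124 with a median of 12246.5. Cells with at most 15% mitochondrial UMIs and at least 200 genes were kept, 12143 iron-positive and 9403 iron-negative cells, and 85 barcodes occurred in both libraries. Phagocyte-like cells, gated on 12 markers of monocytes and macrophages such as Csf1r and Cd68, made up 81.0% (80.3 to 81.7) of the iron-positive cells, 9839 in number, and 97.4% (97.1 to 97.7) of the iron-negative cells, 9160 in number. Their summed markers stood at 20393 and 20680 CPM (counts per 1000000 UMIs of the gate), with 12 of 12 detected in both. Vessel and connective tissue cells were mostly iron-positive: 716 against 15 endothelial-like cells, 121 against 1 pericyte- or smooth muscle-like cell, 143 against 26 collagen-high fibroblast-like cells and 114 against 44 Sox9 Grem1 mesenchymal cells. These markers do not separate fibroblasts from tumor cells, and class shares can be set by the column and by the depth gap. No complement gene was used in any gate. Intervals are exact 95% intervals for counting error only.

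Over all kept cells the C1q genes were lower in the iron-positive library, each by nearly the same factor. C1qa stood at 2884 CPM in iron-positive and 4539 CPM in iron-negative cells, 1.57-fold lower (1.57 to 1.58). C1qb and C1qc were both 1.58-fold lower. C5ar1 (120.4 against 166.4 CPM), Cfb (166 against 211 CPM), C3ar1 (261 against 329 CPM) and C3 (209.6 against 239 CPM) were lower by 1.38-, 1.27-, 1.26- and 1.14-fold. C6 alone of the 8 genes that reached 10 CPM was higher, with 20.8 CPM in iron-positive and 11.4 CPM in iron-negative cells, 1.83-fold. Past 1.5-fold, 3 of the 8 members were lower and 1 was higher, beside 3.98% of all 8241 measured genes lower and 9.29% higher. The phagocytes, which hold most of these UMIs, gave 72.9% of all UMIs of the iron-positive and 95.7% of the iron-negative kept cells.

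Within the phagocytes the C1q genes remained lower in the iron-positive library, and C6 was the one member past 1.5-fold. C1q summed over its 3 chains was 9053 CPM in iron-positive and 11273 CPM in iron-negative phagocytes, a log2 ratio of -0.32 (-0.32 to -0.31). C6 was 27.2 CPM (2481 UMIs) in iron-positive and 11.8 CPM (1481 UMIs) in iron-negative phagocytes, 2.30-fold higher, a log2 ratio of 1.20 (1.11 to 1.29). Cfb (log2 ratio -0.22; -0.24 to -0.19) and C5ar1 (-0.13; -0.16 to -0.10) were slightly lower, C3 slightly higher (0.05; 0.03 to 0.08), and the interval of C3ar1 held 0 (0.01; -0.01 to 0.03). By count, 1 of 8 members was past 1.5-fold higher and 0 lower, beside 2.4% of 7719 measured genes higher and 0.79% lower. The members' median log2 ratio was -0.17 and that of all measured genes -0.11, with 75.1% of genes below 0. Cells of the iron-positive phagocytes held a median of 7980 UMIs and those of the iron-negative phagocytes 13088, and with each cell thinned to 1000 UMIs the log2 ratio of summed C1q was -0.37 and that of C6 0.98.

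The phagocytes were further divided into 12 states by marker genes, each named by those genes. Of the phagocytes, 11.6% of the iron-positive and 16.1% of the iron-negative cells lay within 0.2 SD of the state limit, so the states are ranges and not types. The Mmp12 Cd36 state, with genes of lipid-laden macrophages such as Gpnmb, held 1615 iron-positive cells (16.4%; 15.7 to 17.2) and 131 iron-negative cells (1.43%; 1.20 to 1.69). The Cd209f Cd163 Lyve1 state, with scavenger receptors of resident macrophages, held 799 (8.12%; 7.59 to 8.68) and 239 (2.61%; 2.29 to 2.96). The Fcrls Cx3cr1 state went the other way, with 495 (5.03%; 4.61 to 5.48) and 1463 (15.97%; 15.2 to 16.7).

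**Figure D1:**
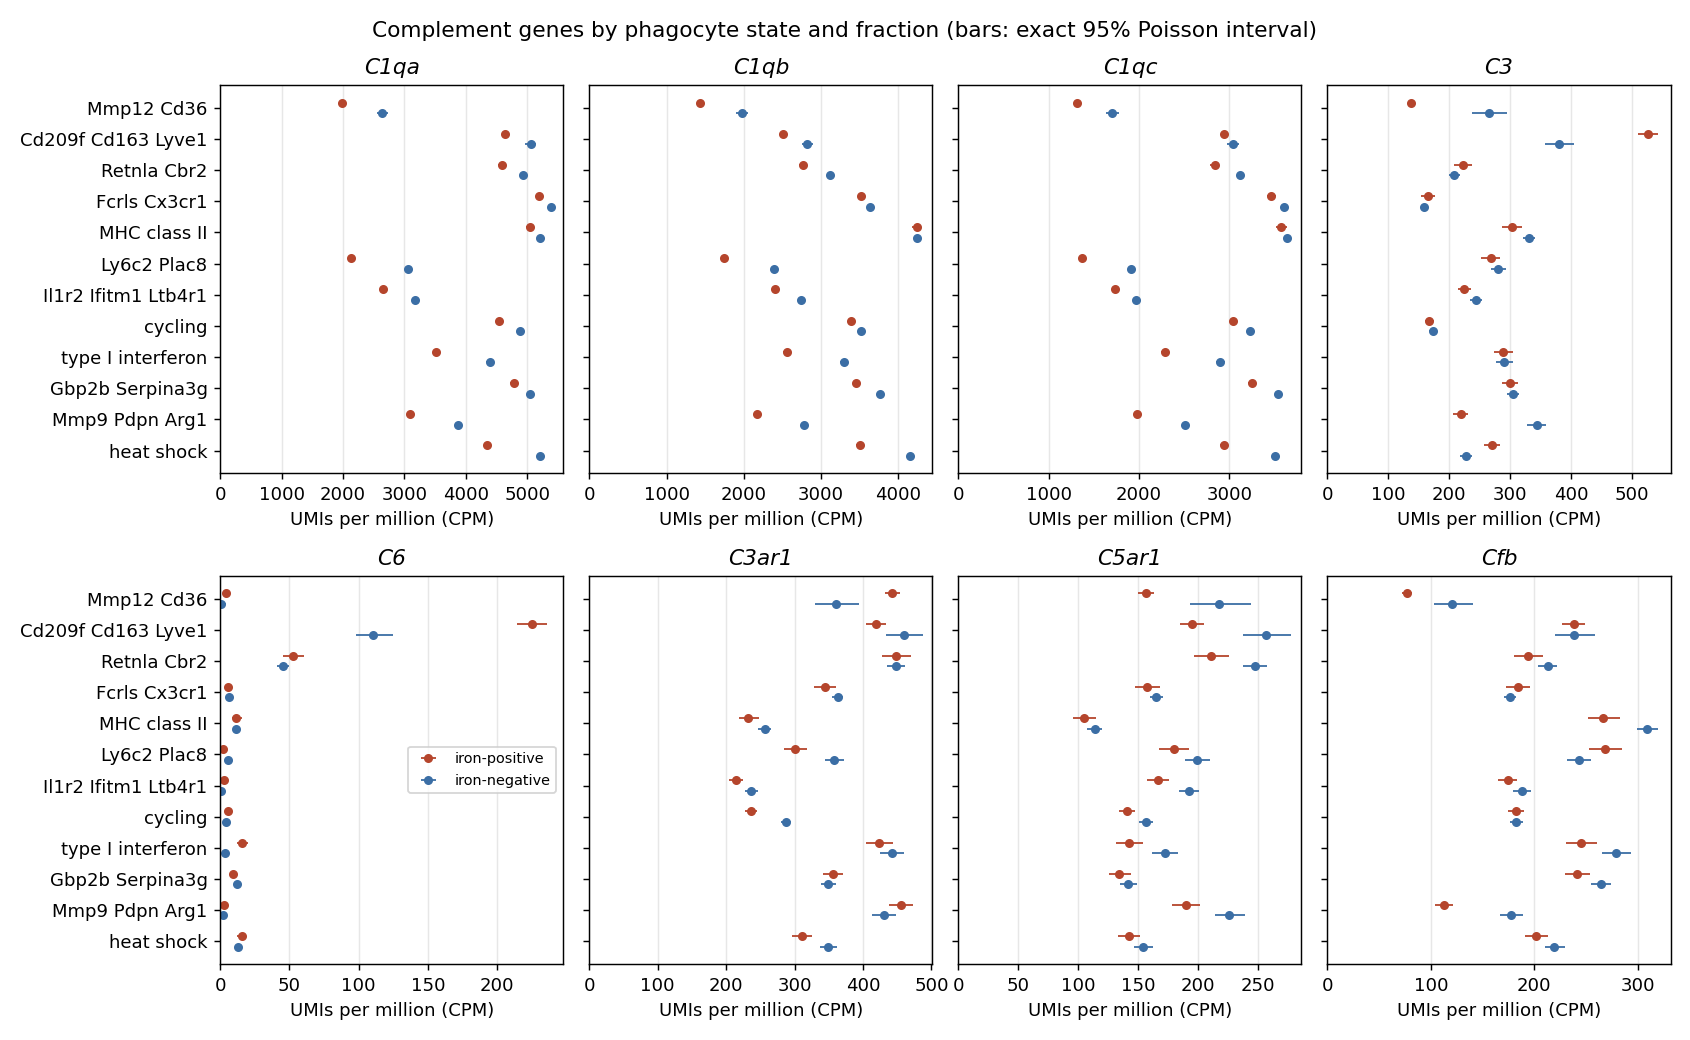
Levels in CPM of 8 complement genes (horizontal axes, linear and starting at 0) in 12 phagocyte states (rows) of the iron-positive and iron-negative libraries, 1 point per library with its exact 95% Poisson interval. The C1q genes were lowest in the Mmp12 Cd36 state of both libraries, C6 was highest in the Cd209f Cd163 Lyve1 state of both (225 and 111 CPM), and C3 of the iron-positive library ran between 138 and 525 CPM.

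C1qa, C1qb and C1qc encode the A, B and C chains of the C1q protein. Summed C1q was lowest in the Mmp12 Cd36 state of both libraries, with 4730.4 CPM in iron-positive and 6314 CPM in iron-negative cells, and highest in the MHC class II state, with 12860.3 and 13082 CPM. The lowest and the highest state differed 2.72-fold in the iron-positive library and 2.07-fold in the iron-negative library. Monocyte-like cells of the Ly6c2 Plac8 state, which enter tissue from blood, had 5248 and 7363 CPM, the state with the widest gap between the libraries (log2 ratio -0.49; -0.51 to -0.47). The narrowest gap was that of the MHC class II state (-0.02; -0.04 to -0.01). Summed C1q was lower in the iron-positive library in 12 of 12 states, with every interval below 0, where 60.1% to 71.4% of all measured genes were below 0 as well. Against the median of all genes in the state (-0.13 to -0.035), it was lower in 11 of 12, the exception being the MHC class II state, which also turned to 0.019 with 10% free RNA subtracted.

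The 3 chains kept step from cell to cell as well. In single phagocytes, summed C1q had a median of 82.8 UMIs per 10000 in iron-positive phagocytes (5th percentile 3.55, 95th percentile 162) and of 111 in iron-negative phagocytes (16.3 and 170.0). The upper ends were close and the lower ends far apart, but the cells differed in depth, with 27.1% of iron-positive and 8.77% of iron-negative phagocytes under 3000 UMIs. Thinned to 1000 UMIs, 91.9% (91.3 to 92.5) of iron-positive and 97.4% (97.0 to 97.7) of iron-negative phagocytes held a C1q UMI. Across cells the chains correlated pairwise at r = 0.64 to 0.71 in 9839 iron-positive phagocytes and 0.68 to 0.77 in 9160 iron-negative phagocytes, values that share each cell's depth. With the Mmp12 Cd36 state left out, the summed C1q log2 ratio was -0.20, and with all states weighted equally -0.18.

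**Figure D2:**
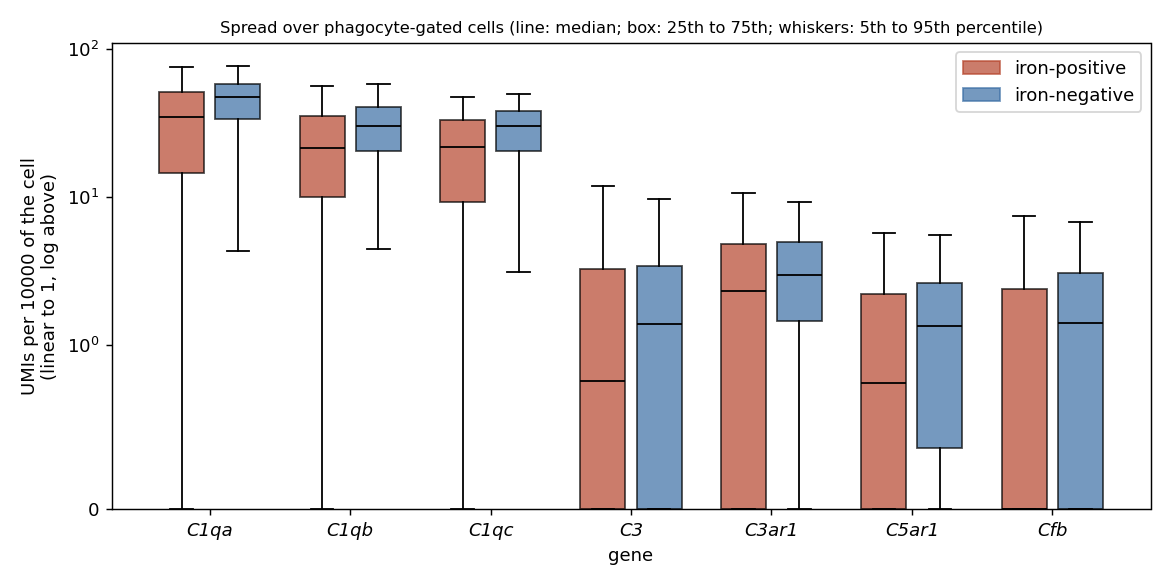
UMIs per 10000 UMIs of the cell (vertical axis, linear to 1 and logarithmic above) for 7 members over 9839 iron-positive and 9160 iron-negative phagocyte-like cells, as boxes of the 25th to 75th percentile with the median and whiskers from the 5th to the 95th percentile. At the unequal depth of these cells (medians of 7980 and 13088 UMIs) the C1q whiskers reached 0 in the iron-positive and 3.12 or more in the iron-negative library, and the 95th percentiles lay near each other (75.8 and 77.6 for C1qa).

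C3, the protein on which all pathways converge, was near equal in the pooled phagocytes and unequal by state. In the Cd209f Cd163 Lyve1 state it was the highest of all states in both libraries, with 525 CPM in iron-positive and 379.9 CPM in iron-negative cells (log2 ratio 0.47; 0.37 to 0.57). In the Mmp12 Cd36 state it stood at 138 and 265 CPM, 1.92-fold lower in the iron-positive library (-0.95; -1.11 to -0.78). The Mmp9 Pdpn Arg1 state, with genes of matrix breakdown and arginine use, showed the same direction at 218 and 343 CPM (-0.65; -0.76 to -0.55). In the heat shock state C3 was 269.7 and 228 CPM (0.24; 0.15 to 0.34), and the ratio's interval held 0 in the other states except MHC class II (-0.13; -0.22 to -0.04) and Il1r2 Ifitm1 Ltb4r1 (-0.12; -0.21 to -0.03, and 0.018 after thinning). The pooled C3 ratio thus joined states on both sides of 0. Markers of collagen-high cells, a class that carries C3, summed to 94.7 CPM in iron-positive and 31.7 CPM in iron-negative cells of the Cd209f Cd163 Lyve1 state (8 and 6 of 8 markers detected), and to 68.0 and 23.3 CPM in the Mmp12 Cd36 state (8 and 7 of 8). Their part in the C3 values was not tested.

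Cfb, the serine protease precursor of the alternative pathway convertase, had its interval below 0 in 8 of 12 states and above 0 in 1, and C3 in 4 and 2. Its widest gaps were in the Mmp12 Cd36 and Mmp9 Pdpn Arg1 states. It stood at 76.7 CPM in iron-positive and 121 CPM in iron-negative cells of the Mmp12 Cd36 state (log2 ratio -0.66; -0.90 to -0.41), its lowest state in both libraries. In the Mmp9 Pdpn Arg1 state it was 113 and 178 CPM (-0.66; -0.81 to -0.51). Thus 2 of 7 measured members were past 1.5-fold lower in the Mmp12 Cd36 state, beside 11.9% of 7531 genes there, and none higher, beside 4.28%. In the Mmp9 Pdpn Arg1 state it was 2 of 7 beside 5.75% of 7509 genes lower, and none higher beside 2.53%. With the states gated on thinned counts, Cfb was -0.43 in the Mmp12 Cd36 state, and C3 and Cfb were both -0.25 in the Mmp9 Pdpn Arg1 state, which ends these 3 calls, while C3 in the Mmp12 Cd36 state was -0.83. Thinning to 1000 UMIs alone gave -0.54 for C3 and -0.32 for Cfb in the Mmp9 Pdpn Arg1 state, also under 1.5-fold. In the Ly6c2 Plac8 state Cfb was slightly higher, 269 and 243 CPM (0.15; 0.04 to 0.25), and its level in the Cd209f Cd163 Lyve1 state was 238 CPM in both libraries.

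**Figure D3:**
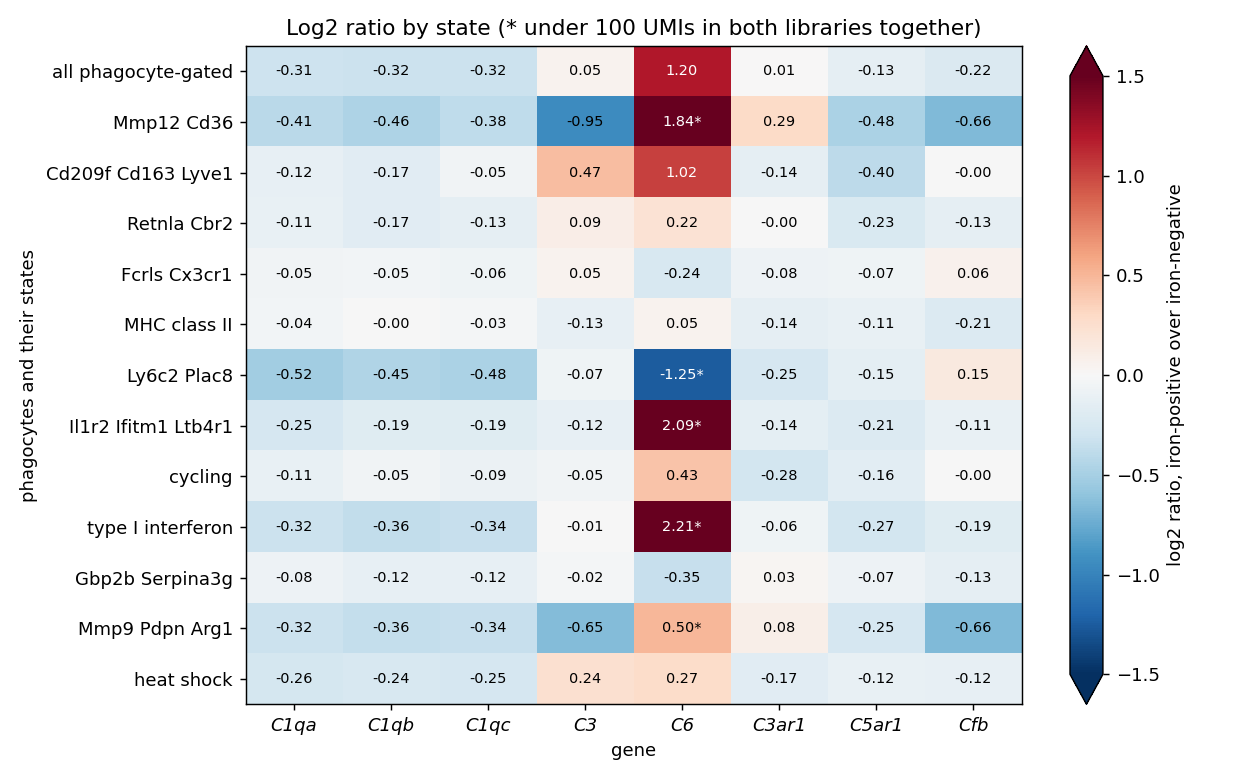
Log2 ratio of iron-positive over iron-negative CPM (colour and printed value) for 8 members (columns) in all phagocyte-like cells and in each of 12 states (rows), with an asterisk where both libraries together held under 100 UMIs. The C1q genes and C5ar1 were below 0 in 12 of 12 states, beside 60.1% to 71.4% of all genes, with C1qb at -0.001 in the MHC class II state and C5ar1 above 0 in 6 of 12 states after thinning, while C3 ran between -0.95 and 0.47.

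C6, which joins C5b on the way to the membrane attack complex, was a gene of few cells. It was detected in 732 of 9839 iron-positive phagocytes (7.44%; 6.93 to 7.98) and 610 of 9160 iron-negative phagocytes (6.66%; 6.16 to 7.19), beside 12 of 716 iron-positive endothelial-like cells (1.68%; 0.869 to 2.91; median 5808 UMIs) as a background. After thinning, 2.64% (2.31 to 2.996) of iron-positive and 1.51% (1.26 to 1.78) of iron-negative phagocytes had a C6 UMI. In the phagocytes, 114 and 117 cells were enough to hold 50% of its UMIs. The Cd209f Cd163 Lyve1 state held 1702 of 2481 C6 UMIs of the iron-positive phagocytes (68.6%; 66.7 to 70.4) and 279 of 1481 of the iron-negative phagocytes (18.8%; 16.9 to 20.9). The Retnla Cbr2 state held 8.02% (6.98 to 9.16) and 30.9% (28.6 to 33.3). The state with the largest share of C6 UMIs thus differed between the libraries, but so did the sizes of the states. Of all phagocyte UMIs, the Cd209f Cd163 Lyve1 state held 8.28% in the iron-positive and 2.01% in the iron-negative library, and the Retnla Cbr2 state 4.14% and 8.07%. As a level in CPM, C6 was highest in the Cd209f Cd163 Lyve1 state of both libraries.

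Within the Cd209f Cd163 Lyve1 state C6 was 225 CPM in iron-positive and 111 CPM in iron-negative cells (log2 ratio 1.02; 0.84 to 1.21), 1 of 8 members past 1.5-fold higher beside 3.64% of 7662 genes, with 0 lower beside 5.19%. In phagocytes with a UMI of Cd209f, a lectin of resident macrophages, C6 was 262 CPM (248 to 275) in 524 iron-positive cells and 117 CPM (102 to 133) in 135 iron-negative cells. In phagocytes without one it was 11.8 CPM (11.1 to 12.5) and 10.2 CPM (9.65 to 10.8). This closeness held less for other markers of the state, since C6 was 20.3 and 8.80 CPM in phagocytes without a Lyve1 UMI and 19.7 and 10.8 CPM in those without a Marco UMI. The gap in phagocytes with a UMI also varied by marker. With a Lyve1 UMI, C6 was 137 CPM in iron-positive and 103 CPM in iron-negative cells, and with a Cd209g UMI 283 and 171 CPM. With a Marco UMI it was 88.1 and 41.5 CPM, and with a Cd163 UMI 129 and 35.4 CPM. In the Retnla Cbr2 state it was 52.6 and 45.3 CPM (0.22; -0.03 to 0.46), and -0.38 after thinning. Without the Cd209f Cd163 Lyve1 state, the log2 ratio over the remaining phagocytes was -0.076, which pools states of unequal size in the libraries. Taken by state, C6 was above 0 in 9 of 12 states and below 0 in 3, where 60.1% to 71.4% of all measured genes were below 0. Its interval lay above 0 in 3 and below 0 in 1. Outside the Cd209f Cd163 Lyve1 state, those above 0 were the type I interferon (70 and 18 UMIs) and Il1r2 Ifitm1 Ltb4r1 (22 and 6 UMIs) states. Phagocytes in no state had a log2 ratio of 0.86 (0.42 to 1.30; 107 and 76 UMIs). C6 stood at 2.30 CPM (4 UMIs) in the collagen-high cells and 0.82 CPM (12 UMIs) in the endothelial-like cells of the iron-positive library, well under its Cd209f Cd163 Lyve1 level.

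**Figure D4:**
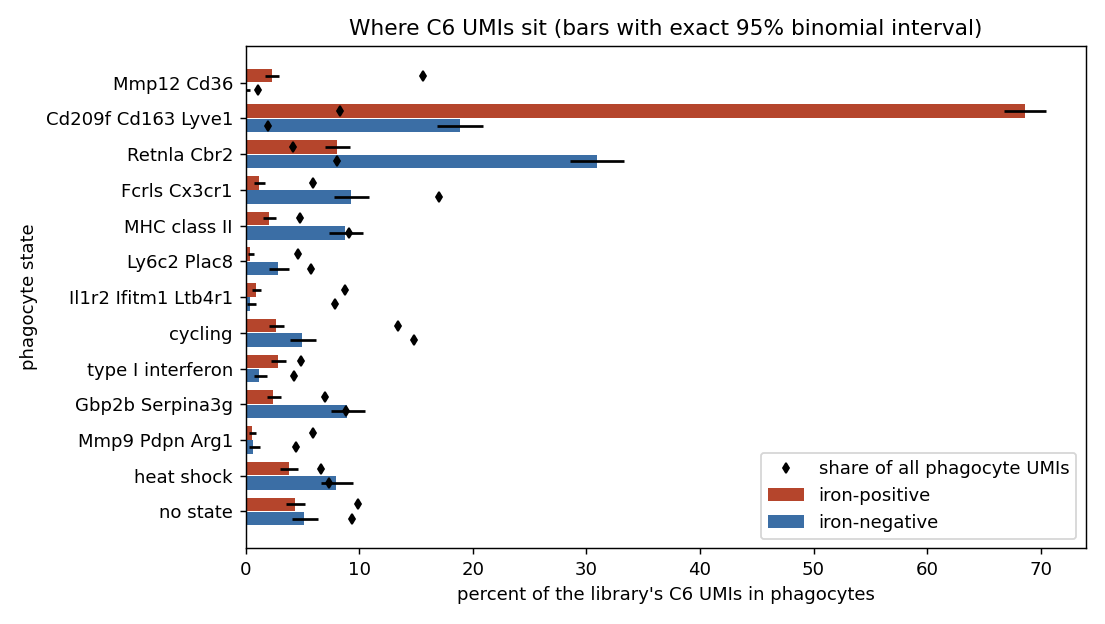
Percent of each library's C6 UMIs in phagocyte-like cells (horizontal axis, bars from 0 with exact 95% binomial intervals) by state for the iron-positive and iron-negative libraries, with diamonds for the state's share of all phagocyte UMIs. The Cd209f Cd163 Lyve1 state held 68.6% and 18.8% of C6 UMIs, against 8.28% and 2.01% of all UMIs.

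C3ar1, the receptor of C3a, was close in the pooled phagocytes, with 343 CPM in iron-positive and 342 CPM in iron-negative cells. As counted, it was higher in the Mmp12 Cd36 state, at 442 and 361 CPM (log2 ratio 0.29; 0.16 to 0.43), but thinning to 1000 UMIs turned this to -0.15 and gates on thinned counts to -0.046. It was lower in the cycling state, at 237 and 287 CPM (-0.28; -0.34 to -0.21), and in the Ly6c2 Plac8 state, at 301 and 358 CPM (-0.25; -0.35 to -0.15). Its interval lay below 0 in 7 of 12 states and above 0 in 2. No state reached 1.5-fold.

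C5ar1, the receptor of C5a, was lower in the iron-positive library in 12 of 12 states, with the interval below 0 in 8, and under the median of all genes in 12 of 12, where 60.1% to 71.4% of genes were below 0. After thinning, 6 of the 12 states turned above 0, and median scaling brought the pooled ratio to -0.019. The widest gaps were in the Mmp12 Cd36 state, at 157 and 218 CPM (log2 ratio -0.48; -0.65 to -0.29), and the Cd209f Cd163 Lyve1 state, at 195 and 257 CPM (-0.40; -0.53 to -0.26). Both libraries had their lowest C5ar1 in the MHC class II state (105 and 114 CPM).

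Outside the phagocytes, a UMI can come from free RNA, which carries its genes in 1 fixed ratio into every droplet of a library. C1q, taken here as that tracer, stood at 309 CPM (299.8 to 318) in endothelial-like, 375 CPM (349 to 401) in pericyte- or smooth muscle-like, 496 CPM (464 to 531) in collagen-high, 345 CPM (327 to 363) in Sox9 Grem1 and 423 CPM (336 to 526) in T or NK-like cells of the iron-positive library, against 9053 CPM in its phagocytes. After thinning to 1000 UMIs per cell, 91.9% of iron-positive phagocytes but also 42.1% (26.3 to 59.2) of T or NK-like cells held a C1q UMI. Per 100 C1q UMIs, C3ar1 counted 3.79 in phagocytes and 3.96 (3.40 to 4.60), 2.94 (1.87 to 4.41), 3.47 (2.33 to 4.99) and 3.61 (2.69 to 4.77) in the 4 vessel and connective tissue classes, taken in the same order. C5ar1 counted 1.75 in phagocytes and between 1.53 and 1.71 in those classes. Both receptors thus kept the phagocyte ratio there within counting error. Whether these UMIs came from free RNA, from droplets with more than 1 cell or from the cells themselves was not tested.

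C3 and Cfb stood above that ratio in some classes. In the collagen-high cells C3 counted 99.2 UMIs (90.1 to 109) per 100 C1q UMIs, against 2.79 (2.76 to 2.83) in phagocytes and 2.47 (0.294 to 9.21) in T or NK-like cells. As a level it was 492 CPM in 143 iron-positive and 514 CPM in 26 iron-negative collagen-high cells. The iron-positive level was 1026 CPM after thinning and 209 CPM with gates on thinned counts. C3 was detected in 67 of the 143 iron-positive and 12 of the 26 iron-negative cells, but its UMIs were concentrated in few of them. Of the 143 cells, 5 held 50% of the 858 iron-positive UMIs, and 1 of the 26 held 227 of the 371 iron-negative UMIs. Depth differed too, since iron-positive cells with a C3 UMI had a median of 15759 UMIs and those without 1801. In the Sox9 Grem1 cells, C3 was 125 CPM in 114 iron-positive and 68.1 CPM in 44 iron-negative cells, and 36.2 (32.7 to 40.1) and 15.5 (13.3 to 18.0) per 100 C1q UMIs.

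Cfb stood above the phagocyte ratio in the endothelial-like cells. There it counted 36.8 UMIs (34.7 to 38.9) per 100 C1q UMIs, against 2.07 (2.03 to 2.10) in phagocytes and 6.17 (1.95 to 15.01) in T or NK-like cells. Its level was 114 CPM (108 to 119; 1660 UMIs) over 716 iron-positive and 116 CPM (85.2 to 153; 48 UMIs) over 15 iron-negative endothelial-like cells. Of the 716 cells, 358 had a Cfb UMI, and 62 held 50% of the UMIs. Cells with a Cfb UMI had a median of 26502.5 UMIs and those without 1695.5, so a cell without one need not lack Cfb. After thinning, 10.7% (8.41 to 13.5) of endothelial-like and 5.26% (0.644 to 17.7) of T or NK-like cells had one, so the shares of cells did not separate them at that depth. C3 in the same endothelial-like cells was 19.7 CPM, or 6.38 (5.64 to 7.19) per 100 C1q UMIs, with 12 cells holding 50% of the 288 UMIs and 1 cell holding 79. In the 15 iron-negative endothelial-like cells C3 counted 1.19 (0.244 to 3.52) per 100 C1q UMIs, against 2.16 (2.14 to 2.19) in the iron-negative phagocytes. Collagen-high cells had Cfb at 196 CPM in the iron-positive and 216 CPM in the iron-negative library, Sox9 Grem1 cells at 79.5 and 15.3 CPM, and pericyte- or smooth muscle-like cells at 44.1 CPM in the iron-positive library. Phagocyte markers summed to 804 CPM in iron-positive endothelial-like cells, against 20393 CPM in phagocytes, and collagen-high markers to 795 CPM, against 24772 CPM in collagen-high cells.

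**Figure D5:**
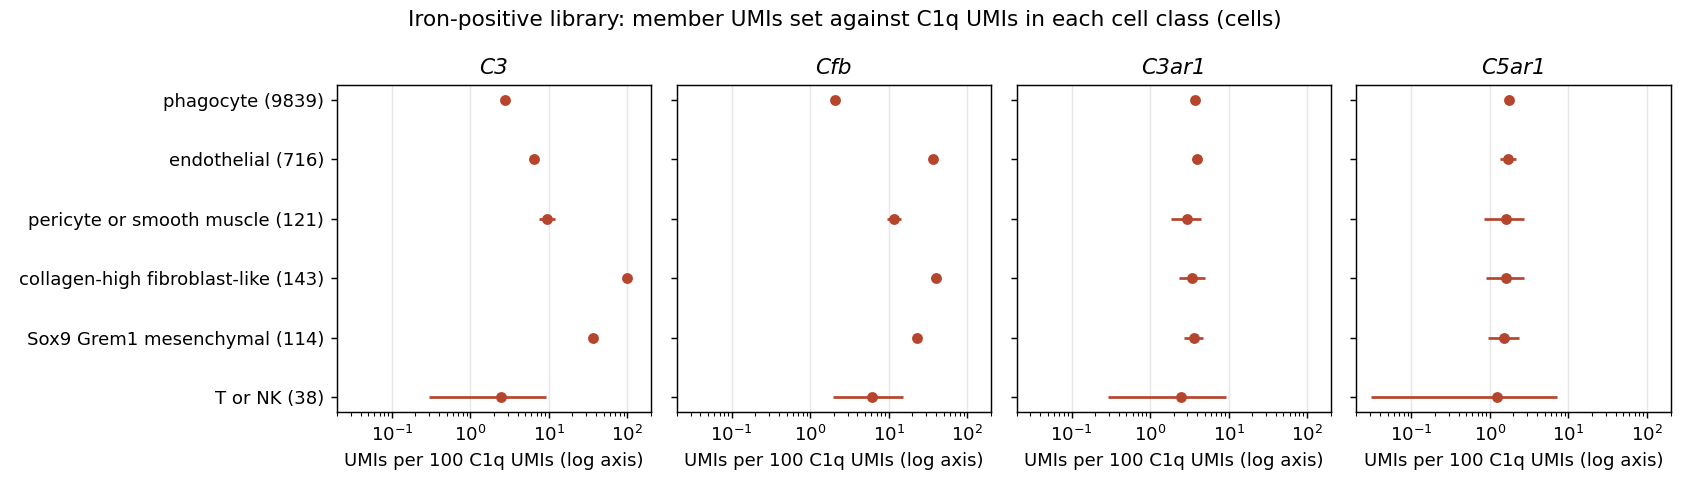
UMIs of C3, Cfb, C3ar1 and C5ar1 per 100 C1q UMIs (horizontal logarithmic axes, exact 95% intervals) in 6 cell classes of the iron-positive library, with the number of cells beside each class. C3ar1 and C5ar1 kept the phagocyte ratio in every class within counting error, while C3 reached 99.2 in collagen-high cells and Cfb 36.8 in endothelial-like and 39.5 in collagen-high cells.

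Cfd, the protease that cleaves factor B and a known product of fat cells (adipsin), came almost wholly from 1 droplet. Of 669 Cfd UMIs in 14 iron-positive cells, 646 (96.6%) were in 1 cell, in which Cfd stood at 52448 CPM. The other 13 cells had 7, 5 and 11 times 1 UMI. The iron-negative library held 1 Cfd UMI. The same cell, singled out after its values were seen, held 31 of the 42 Adipoq UMIs of its library, 32 of 32 of Cidec, 88 of 98 of Retn and 257 of 292 of Car3, genes of fat cells, and 0 UMIs of Csf1r, Pecam1 and Col1a1. Of the other fat cell genes looked at, it held 23 of 27 Plin4 UMIs, 11 of 17 of Plin1 and only 278 of 68778 of Fabp4. Lep had 0 UMIs in this library. It passed no class gate, and no fold is given for Cfd.

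Genes with a level pattern most like the members' were sought over 30 groups of state and library, 26 of them phagocytes, by Pearson correlation of log2(CPM + 1). Ms4a7 (r = 0.99), P2ry6 and Unc93b1 were nearest to summed C1q, Cd68 (0.99), Cd84 and Ncf1 to C3ar1, and Alox5ap (0.99), Fcgr2b and Itgam to C5ar1. For C3 they were Nrg1 (0.85), Mmp19 (0.83) and Mitf (0.83), for C6 Fxyd2 (0.91), Reps2 (0.91) and Clec10a (0.87), and for Cfb Cnp (0.86), Nadk (0.81) and Tmem251 (0.79). Cfd, under 10 CPM, was left out. The groups share 2 libraries, their depth and their free RNA, and the weight of the 4 groups outside the phagocytes was not tested.

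Of 47 other complement genes considered, 12 reached 10 CPM in phagocytes of either library, and 2 of them were past 1.5-fold higher in the iron-positive library and 0 lower, beside 2.4% and 0.79% of all measured genes. Cd55, which speeds the decay of convertases, was 14.5 CPM in iron-positive and 2.26 CPM in iron-negative phagocytes (log2 ratio 2.68; 2.50 to 2.88). C4b, of the classical convertase, was 40.6 and 25.7 CPM (0.66; 0.59 to 0.73). Both were also detected in collagen-high cells of both libraries. Cd55 was 73.5 CPM in iron-positive and 143 CPM in iron-negative collagen-high cells, and C4b 108 and 97.0 CPM. Collagen-high markers summed to 71.9 CPM in iron-positive and 18.9 CPM in iron-negative phagocytes, with 8 of 8 detected in both. Their part in these ratios was not tested. Ficolin Fcna was 63.3 and 47.0 CPM (0.43), and properdin (Cfp), which stabilises the alternative convertase, 401 and 402 CPM.

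The measured genes among them that were listed as receptors or binding proteins had log2 ratios between -0.27 and 0.07, beside a median of -0.11 for all genes. Itgb2 was at 0.07, Itgam at -0.11 and Itgax at -0.12, which together form the C3 fragment receptors, C5ar2 at -0.20, Cr1l at -0.20, C1qbp at -0.13 and Cd93 at -0.27, and the protease C1ra at -0.17. The 12 had a median log2 ratio of -0.11, the same as all measured genes. None of the 6 other genes of the terminal pathway reached 10 CPM, so C6 was the only one measured there in phagocytes.

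Other parts of the cascade were carried by the vessel and connective tissue cells. Serping1, the C1 inhibitor, was 1335 CPM in iron-positive pericyte- or smooth muscle-like cells, 1026 and 525 CPM in iron-positive and iron-negative collagen-high cells, 488 and 167 CPM in Sox9 Grem1 cells and 305 and 207 CPM in endothelial-like cells. The proteases that bind C1q were present there too. C1s1 was 205 CPM in iron-positive pericyte- or smooth muscle-like cells, 195 CPM in iron-positive and 143 CPM in iron-negative Sox9 Grem1 cells and 189 and 94.2 CPM in collagen-high cells. C1ra was 51.0 CPM, 87.9 and 82.4 CPM, and 93.0 and 101 CPM in the same classes. C2, of the classical convertase, was 73.0 CPM, 78.5 and 68.5 CPM, and 60.8 and 22.2 CPM there, and the collectin Colec12 74.9 and 21.0 CPM in Sox9 Grem1 and 74.6 and 33.3 CPM in collagen-high cells. Cd93 was 720.5 CPM in iron-positive and 1095 CPM in iron-negative endothelial-like cells. Cr1l was 88.0 and 93.9 CPM in the same cells and 78.5 CPM in iron-positive pericyte- or smooth muscle-like cells. In collagen-high cells Cr1l was 59.7 and 31.9 CPM, and in Sox9 Grem1 cells 41.7 and 27.1 CPM. C1qbp was 134 and 210.2 CPM in Sox9 Grem1, 107 and 155 CPM in collagen-high and 95.3 and 101 CPM in endothelial-like cells. In iron-positive pericyte- or smooth muscle-like cells C1qbp was 83.6 CPM and Vtn 73.0 CPM.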

How the data were processed

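Per the labels, tumors were digested with collagenase and DNase before the column. The deposited values are UMI counts for each gene in each barcode, which the authors had not normalized. Cell Ranger 3.1.0 and mm10 are named in the submitters' processing notes, while the version in the file headers is 5.0.0. The members, gene lists and gates were chosen with earlier results of these data known. The phagocyte gate took at least 4 of 12 markers and 50 marker UMIs per 10000, and other classes at least 3 markers and 5 per 10000. Cells passing 2 gates were left out, and no doublet caller was run, so doublets may remain. States took the highest z-score of at least 1. UMIs were summed per gate as CPM, and log2 ratios used 0.5 added to each count, with 10 CPM in either library to count a gene as measured and 50 cells in both libraries to compare a gate. A count of 0 allows up to 0.0247% of iron-positive and 0.0319% of iron-negative kept cells to hold a UMI at this depth, and does not limit the share that express the gene. Of 32285 gene IDs, 32158 matched GENCODE. The calculation of ratios was tested on simulated data. The tools were pandas 2.3.3, scipy 1.17.1, numpy 2.4.6 and matplotlib 3.10.9 under Python 3.11.15. All 9 members and, of the listed complement genes, those with 10 CPM in phagocytes or 50 CPM in a vessel or connective tissue class were to be named, with the 3 genes most like each member. A gene that this rule takes is not reported here.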

Additional observations from a re-analysis of the deposited data

Results flagged for a closer look

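Members whose log2 ratio lay above 0 in one phagocyte state and below 0 in another, with both intervals clear of 0, are given here. The differences between states were not tested. For C3 the ratio was 0.47 in the Cd209f Cd163 Lyve1 state and -0.95 in the Mmp12 Cd36 state, a difference of 1.41. For Cfb it was 0.15 in the Ly6c2 Plac8 state and -0.66 in the Mmp9 Pdpn Arg1 state, a difference of 0.81. For C3ar1 it was 0.29 in the Mmp12 Cd36 state and -0.28 in the cycling state, a difference of 0.57, and thinning turned the first of these to -0.15. For C6 it was 2.21 (1.48 to 3.07; 70 and 18 UMIs in iron-positive and iron-negative cells) in the type I interferon state and -1.25 (-2.47 to -0.29; 10 and 42 UMIs) in the Ly6c2 Plac8 state, a difference of 3.46 that rests on few UMIs.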

How the results depend on the processing

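Every value compares 1 library with 1 library, so no alternative measures the spread between animals. Summed C1q stayed below 0 in phagocytes under 14 alternatives, with -0.39 for the mean of each cell's CPM, -0.37 after thinning to 1000 UMIs (1083 iron-positive and 266 iron-negative phagocytes left out), -0.33 without the 8% of cells with most UMIs, -0.28 with 10% free RNA subtracted, -0.20 with median scaling or without the Mmp12 Cd36 state, and -0.18 with states weighted equally. Chosen after seeing the data, leaving out cells under 3000 UMIs gave -0.31 and leaving out the Cd209f Cd163 Lyve1 state -0.33. C6 was 1.01 for the mean of each cell's CPM, 1.31 with median scaling, 0.98 after thinning, 0.72 with equal states, 1.40 without the Mmp12 Cd36 state and -0.076 without the Cd209f Cd163 Lyve1 state, which holds most of its iron-positive UMIs. Members past 1.5-fold higher numbered 0 without that state and 0 at a minimum of 50 CPM, since C6 is then not measured, and 2 with no minimum. None was past 1.5-fold lower in any alternative. C3 ran between -0.08 and 0.17, C3ar1 between -0.12 and 0.12, C5ar1 between -0.26 and -0.02 and Cfb between -0.26 and -0.07. Median scaling moves every ratio by 0.11. Among 446 values of states under alternatives, 45 changed sign, none of them from a size above 0.35, and 30 of the 117 state values did so in at least 1 alternative. The C3 level of iron-positive collagen-high cells was 492 CPM, 1026 CPM after thinning and 209 CPM with gates on thinned counts, and Cfb of iron-positive endothelial-like cells ran between 108 and 121 CPM. Cfb of the iron-positive Sox9 Grem1 cells ran between 22.5 and 140.4 CPM. No paired analysis was possible because each fraction gave 1 library.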
